A study of Sus scrofa with 40 samples.

Results

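ANKRD1 was measured in the Longissimus muscle (LM) of 40 pigs by 1 probe of 60 bases, BM445302.1_1507, which was selected by its name from the 15198 gene probes of the array, with its difference between breeds already known. Its levels and its breed difference are therefore a description, without a test. A further 51 probes were chosen by how closely they followed ANKRD1 from pig to pig within groups. ANKRD1 (gene 396959 in the RefSeq table of Sscrofa11.1) encodes an ankyrin repeat protein that binds titin in the I-band of the sarcomere and can also enter the nucleus, where it acts on transcription. It is best known from heart, and in skeletal muscle fibres it is typically low at rest and rises with stretch, denervation and unaccustomed exercise. Titin itself is the elastic filament of the sarcomere, and its I-band segment carries a set of partner proteins that respond to strain.

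The 40 pigs were castrated males, 20 of the Basque (B) breed and 20 of the Large White (LW) breed, slaughtered at a live weight of about 145 kg. B pigs grew more slowly and were older at slaughter, and the paper states that age and feeding were confounded with breed. A difference between breeds here therefore includes those of age and feeding. In each breed 10 pigs were housed conventionally (C), indoors on slatted floor, and 10 in an alternative system (A), with bedding and an outdoor area. The methods took a pair of pigs from each litter, 1 for each housing system, but litter is not in the labels used here, and the tests treat the pigs as independent. LM was sampled after exsanguination, so every value comes from muscle that had gone through slaughter. On each array the RNA of 1 pig carried Cy3 and that of a pool of all 40 pigs carried Cy5, and values are given as log2(Cy3/Cy5) after the median of each array was subtracted. A value of 0 would stand for the level in the pool relative to the median probe only if the probe had no dye bias. Such a bias falls alike on every pig, so values are compared between pigs. The mean ANKRD1 value over all 40 pigs was -1.61, although the pool holds the same pigs. Its sign is therefore not read as above or below the pool. Arrays had a median Cy3 signal of 128 to 165, and the number of probes that stood well above background in Cy3 was 10447 on the lowest array and 13441 on the highest. Correlations between arrays over the tested probes ranged from -0.34 to 0.83, and the direction was kept because the methods state the dyes. Muscle markers were present, since the probes of ACTA1, MYH1 and NEB, which encode skeletal actin, a fast myosin heavy chain and nebulin, were well above background on all 40 arrays.

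ANKRD1 was lowest in B pigs of the A system, intermediate in both breeds in the C system, and highest in LW pigs of the A system. In B pigs of the A system the log2 ratio ranged from -4.24 to -0.32 with a median of -2.72 (mean -2.71 ± 1.30, SD, n = 10). In B pigs of the C system it ranged from -3.08 to 0.57 with a median of -1.78 (mean -1.64 ± 1.07, SD, n = 10). In LW pigs of the C system it ranged from -2.67 to 1.12 with a median of -1.82 (mean -1.52 ± 1.10, SD, n = 10). In LW pigs of the A system it ranged from -2.03 to 1.58 with a median of -0.77 (mean -0.58 ± 1.28, SD, n = 10). The 4 groups overlapped. Each mean differed from its neighbour in this order by less than 1 SD: C minus A was 1.06 in B pigs, B minus LW was -0.12 in the C system, and C minus A was -0.94 in LW pigs. The widest separation was between the ends of the order, where 8 of 10 B pigs of the A system lay below every LW pig of the A system.

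**Figure D1:**
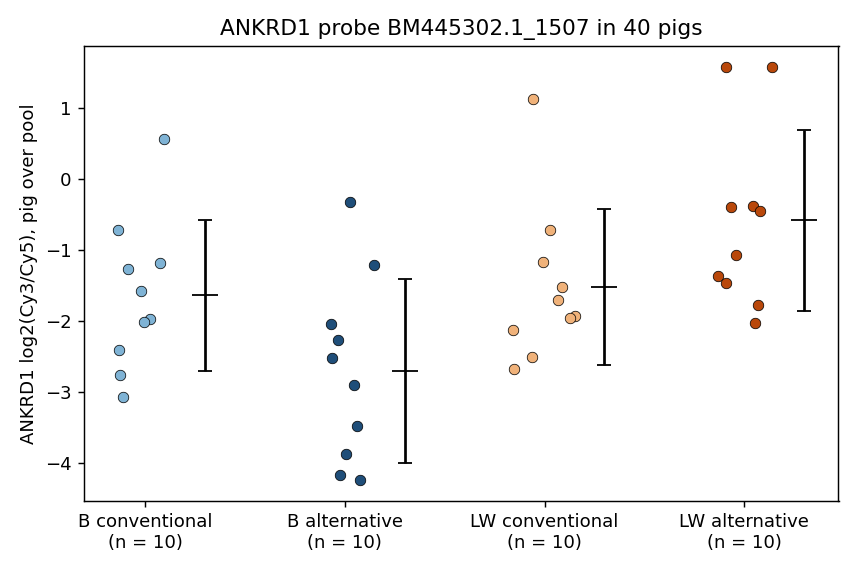
Log2 ratio of pig to pool for the ANKRD1 probe in each of 40 pigs (points, 10 per group), with the group mean and SD (bars), by breed and housing system. B pigs of the A system reach down to -4.24 and LW pigs of the A system up to 1.58, and all groups overlap.

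The spread lay in the channel of the pigs. The Cy3 signal of the spot ran from 1309 to 76272 over the 40 pigs, 58.2-fold, whereas the Cy5 signal of the pool on the same spot ran from 29267 to 54512, 1.86-fold. The probe was well above background on all 40 arrays, and none of its spots was marked as saturated or as an outlier. After breed, housing, their interaction and slide were fitted, ANKRD1 had a residual SD of 1.17, the 5th largest of 12222 tested probes, whose median was 0.171. Within groups its SD ranked between 4 and 11 from the largest. It was thus among the probes that differed most from pig to pig within every group. In bulk muscle, a change in the share of cells that hold a transcript and a change in its amount per cell cannot be told apart.

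Between breeds, averaged over the housing systems, ANKRD1 was lower in B pigs by a log2 difference of -1.11 (SE 0.36, 95% interval -1.84 to -0.39), a 2.16-fold difference. Of the 20 B pigs, 14 lay below the LW median, and 18 of 20 LW pigs lay above the B median. On each of the 7 slides the mean of B pigs was lower than that of LW pigs, with differences between -2.11 (slide 2, 1 pig of each breed) and -0.25 (slide 1, 3 pigs of each breed). Over all probes, 21.2% were called between breeds at an adjusted P value under 0.05 in limma, 11.6% higher and 9.61% lower in B pigs, and nothing is read from this for ANKRD1, which was chosen for its difference. Without centring of the arrays, 83.0% of the calls were higher in B pigs, compared with 54.7% in the main setting, while the ANKRD1 difference lay between -1.17 and -1.03 under all 16 alternatives.

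By housing system, the estimate was larger in size in A than in C. In the A system B pigs were lower than LW pigs by a log2 difference of -2.11 (SE 0.51), a 4.32-fold difference and the 2nd largest of all tested probes in size. The difference averaged over the systems ranked 13 in size and that in the C system 4804, for a probe chosen for its difference. In the C system the difference was -0.11 (SE 0.51), where 5 of the 10 B pigs lay under the median of LW pigs. Its sign changed in 3 of the 40 fits with 1 array left out, and it was highest without LW pig 4 of the C system (0.17). For the background, 7.67% of probes were called between breeds within the A system and 8.29% within the C system.

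Housing was tested over all probes, and ANKRD1 did not pass. Averaged over breeds, the difference between A and C pigs was 0.00 (SE 0.37, adjusted P value of 1 in limma). Within breeds the estimates were opposite and of like size, -0.999 (SE 0.51, adjusted P value 0.999) in B pigs and 1.00 (SE 0.52, adjusted P value of 1) in LW pigs. The interaction of breed and housing was -2.00 (SE 0.72, 95% interval -3.46 to -0.54), with an unadjusted P value of 0.00873 and an adjusted P value of 0.968 over 12222 probes. In size it was the largest interaction of all tested probes, ahead of -1.27 for the next, and by its unadjusted P value it ranked 19. Over all probes, 0% passed an adjusted P value of 0.05 for housing and 0% for the interaction, while 2.77% had an unadjusted P value under 0.05 for housing and 2.64% for the interaction. The 323 probes behind the last share were 108 without centring, 523 without the slide term and 549 with array weights. Under 15 alternatives the ANKRD1 interaction lay between -2.09 and -1.86, with adjusted P values of 0.866 or more. The 95% interval of the mean housing difference, -0.75 to 0.75, leaves room for a change of either sign.

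Pigs with a high ANKRD1 residual, that is high for their group and slide, were found in every group. When residuals were put in order, 7 pigs lay between 1.60 and 2.15, apart from the other 33, which reached up to 0.72 and down to -2.11. They were B pig 3 and LW pigs 4 and 6 of the C system, and B pigs 14 and 16 and LW pigs 14 and 15 of the A system, on 6 slides. Their log2 ratios ran from -1.21 (B pig 16 of the A system) to 1.58, so that not all were high in level: LW pigs 16, 17 and 18 of the A system, outside the 7, had -0.38, -0.40 and -0.46. The array of LW pig 18 had the lowest SD of log2 ratios of all arrays, 0.198. Its Cy3 and Cy5 signals for ANKRD1 were 10788 and 43302, beside 13699 and 54474 in LW pig 11 of the A system, whose log2 ratio was -1.08. No relation of ANKRD1 to technical measures of the arrays passed in permutation tests on 4 measures, by Pearson's r and by rho (2-sided, 100000 resamples, 40 arrays). Pearson's r was 0.135 with the median Cy3 signal (P = 0.406, adjusted 0.735; rho 0.186, P = 0.249, adjusted 0.481) and 0.269 with the median local background (P = 0.092, adjusted 0.368; rho 0.161, P = 0.324, adjusted 0.481). It was -0.0561 with the number of probes well above background (P = 0.73, adjusted 0.735; rho -0.00113, P = 0.995, adjusted 0.995) and 0.0553 with the SD of the log2 ratios (P = 0.735, adjusted 0.735; rho 0.148, P = 0.361, adjusted 0.481). Without the 2 arrays farthest in each measure, r was 0.126, 0.133, -0.113 and 0.334, in the same order. After group means were removed, the 4 values of r lay between -0.0878 and 0.23, and the smallest adjusted P value was 0.608.

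The probes that followed ANKRD1 most closely within groups were found by the correlation of residuals over the 40 pigs. This correlation ranged from -0.65 to 0.86 over 12221 probes, with 5% below -0.31 and 5% above 0.34. An absolute r of at least 0.6 was reached by 51 probes, 41 with positive and 10 with negative r. The negative count in particular depended on the processing: 34 positive and 0 negative probes were found without centring, 26 and 4 without the slide term, 30 and 2 by Spearman's rho, and 61 and 19 after loess, and the negative count was 3 without LW pig 6 of the C system. The last probe inside and the first outside had an r of 0.601 and 0.599 on the positive side, and of -0.603 and -0.584 on the negative side. These values chose the probes and are given without a test. Of the 41 positive probes, 39 had a positive r in each of the 4 groups, and all 10 negative probes had a negative r in each. The 41 probes came from 38 contigs and 35 of them were well above background on all 40 arrays.

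The closest were a pair of probes of the contig CF366520.1, which is unnamed here. CF366520.1_776 had an r of 0.86 (rho 0.70), with 0.88 and 0.90 in B pigs of the C and A systems and 0.93 and 0.78 in LW pigs of the C and A systems. CF366520.1_605 had an r of 0.83 (rho 0.62) and lay between 0.78 and 0.94 within groups. The 7 pigs with the highest ANKRD1 residuals were also the 7 with the highest residuals of both probes. Among these 7 pigs alone, over a narrow range of ANKRD1, r was 0.003 for CF366520.1_776 and 0.22 for CF366520.1_605. Within the 7 their order was thus not shared. The log2 ratio of CF366520.1_776 lay between -2.46 and 0.53 in B pigs, with a median of -1.47, and between -2.27 and 0.49 in LW pigs, with a median of -1.37, so that the breeds overlapped over most of the range. Its breed difference did not pass (B minus LW 0.01, SE 0.19, adjusted P value 0.983). Its interaction was -1.06 (adjusted P value 0.968), with estimates of -0.48 in B and 0.59 in LW pigs for A minus C.

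Symbols were available for 683 of the tested probes, all from a list that the study selected on these pigs for being lower in B than in LW. The direction of their breed difference is therefore no independent evidence, and most of the 51 covarying probes (46) have no symbol here. On this list 40 contigs had several probes, and in all 40 the probes carried 1 symbol. A matching list of genes higher in B pigs was not used for symbols, because of its 37 contigs with several probes 0 had the same symbol on all of them, so that its probes and symbols could not be paired.

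HBEGF, a membrane-anchored growth factor that is shed and binds the EGF receptor, had the highest r among named genes, 0.80 (rho 0.75). Within groups r was 0.56 and 0.73 in B pigs of the C and A systems, and 0.71 and 0.85 in LW pigs of the C and A systems. Its log2 ratio ranged from -1.33 to -0.16 in B pigs of the C system (median -0.62) and from -1.06 to 0.25 in B pigs of the A system (median -0.61). It ranged from -1.59 to 0.47 in LW pigs of the C system (median -0.64) and from -1.01 to 1.20 in LW pigs of the A system (median 0.18). HBEGF was thus highest in the group where ANKRD1 was highest, while the other 3 groups had similar medians and all groups overlapped. Neither its breed difference (-0.38, SE 0.15, adjusted P value 0.0739) nor its interaction (-0.74, adjusted P value 0.968) passed. By housing system, HBEGF was lower in B than in LW pigs of the A system (-0.75, SE 0.22, adjusted P value 0.0294), whereas the difference in the C system did not pass (-0.016, SE 0.22, adjusted P value 0.976). Within the A system 7.67% of all probes were called, and HBEGF was chosen by its likeness to ANKRD1 and named from a list of genes lower in B pigs, so nothing is read from this call.

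DNAJA4, a co-chaperone of the heat shock protein 70 family, followed with an r of 0.73 (rho 0.64), between 0.54 and 0.76 within groups. Its log2 ratio lay between -1.35 and 0.44 in B pigs, with a median of -0.73, and between -1.47 and 1.19 in LW pigs, with a median of -0.34, without passing between breeds (-0.48, SE 0.19, adjusted P value 0.0715). These 2 were the only named genes with r of at least 0.6. The next 8 had r between 0.51 and 0.59: TMEM61, EFNA1 (a ligand of Eph receptors), MT-ATP6 (a mitochondrial subunit of ATP synthase), C1ORF198, ITIH4 (a plasma protein of the inter-alpha-trypsin inhibitor family), the transcription factor MYC, TSPAN9 (a tetraspanin) and the receptor NOTCH1. For 9 of these 10 genes r was positive in each group, the exception being MYC, with -0.06 in B pigs of the A system. Between breeds 4 of the 10 were called, all lower in B pigs: MT-ATP6 (-0.30), C1ORF198 (-0.29), ITIH4 (-0.59) and NOTCH1 (-0.20). Over all probes 9.61% were called lower in B pigs, and these genes have their symbols from a list chosen for that direction.

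**Figure D2:**
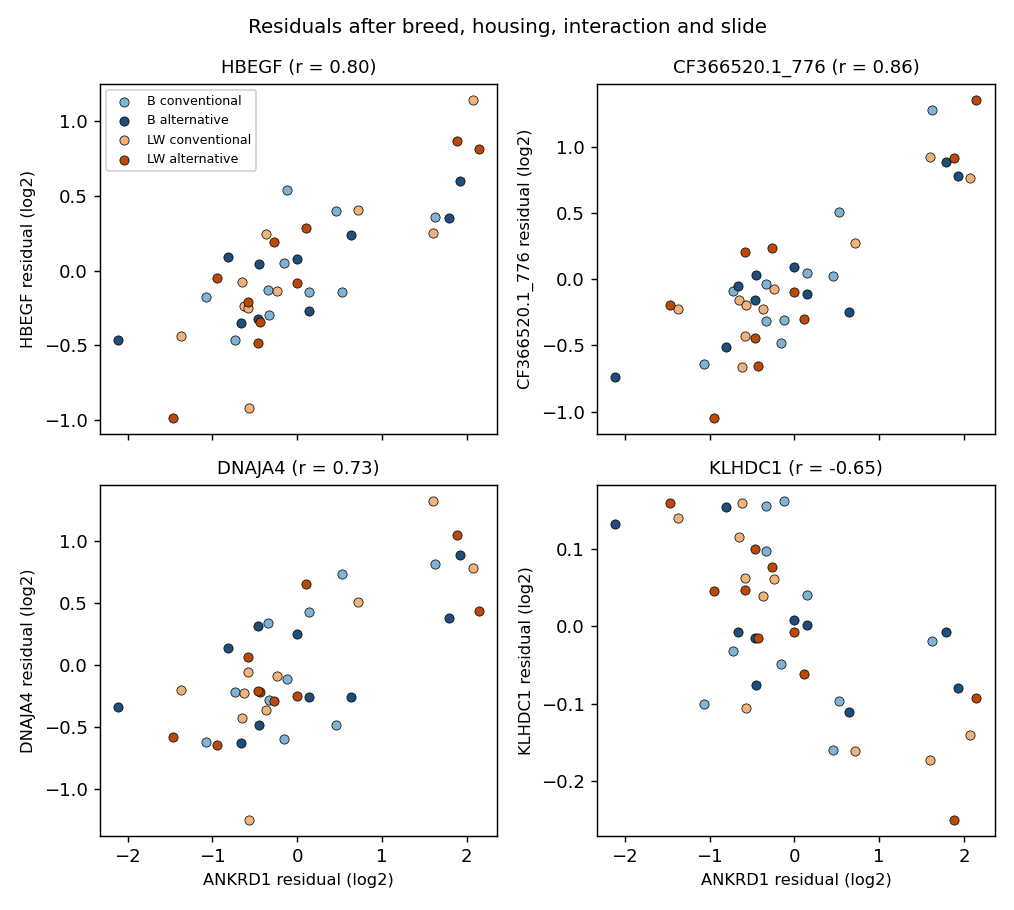
Residual log2 ratio of 4 probes (vertical axes) against that of ANKRD1 (horizontal axes) in 40 pigs, coloured by group, after breed, housing, interaction and slide were fitted. HBEGF, CF366520.1_776 and DNAJA4 rise with ANKRD1 and KLHDC1 falls, and 7 pigs stand apart at ANKRD1 residuals of 1.60 or more.

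On the negative side r was weaker. KLHDC1, a kelch domain protein, had an r of -0.65 (rho -0.60), and its residual SD was 0.12, so that its changes were small. NUBPL, an assembly factor of respiratory complex I, and PMS2, a DNA mismatch repair protein, both had an r of -0.61. MTMR9 (a myotubularin-related protein, -0.55), EWSR1 (an RNA-binding protein, -0.45), SAV1 (a scaffold of the Hippo pathway, -0.45), C20ORF11 (-0.44), MYO10 (an unconventional myosin, -0.44), PCTP (a phosphatidylcholine transfer protein, -0.43) and CRTAP (a collagen-modifying protein, -0.41) did not reach 0.6. In EWSR1 and SAV1 r had the opposite sign in 1 group, 0.51 in LW pigs of the C system and 0.12 in LW pigs of the A system, respectively. The unnamed probes with the lowest r were BP146482.1_897 and CF362136.1_1318, both at -0.65. Between breeds 9 of the 10 named genes were called, all lower in B pigs, compared with 9.61% of all probes, but this is the direction for which the list that gave their names was selected. The r of KLHDC1 was -0.24 without centring, and that of NUBPL -0.35 and of PMS2 -0.33.

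**Figure D3:**
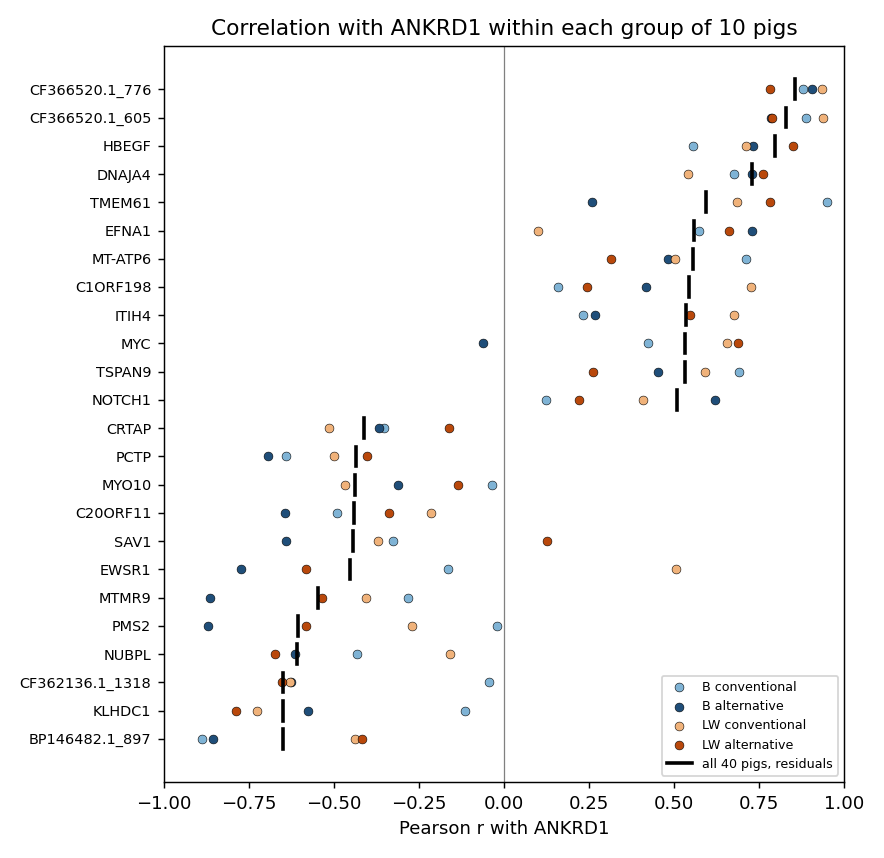
Pearson r with ANKRD1 within each group of 10 pigs (points) and over the residuals of 40 pigs (black bars) for the 10 named genes with the highest and the 10 with the lowest r, and for 2 unnamed probes in each direction. CF366520.1_776 stays at 0.78 or more in every group, whereas SAV1, EWSR1 and MYC each change sign in 1 group.

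Correlations were also taken without the 7 pigs with high ANKRD1 residuals. Leaving them out narrows the range of ANKRD1, which by itself lowers r, so these values do not show how much of the covariation the 7 pigs carry. Among the other 33 pigs, r was 0.60 for HBEGF, 0.55 for CF366520.1_776, 0.43 for DNAJA4 and -0.57 for KLHDC1, and 4 probes reached an absolute r of 0.6. Without the 2 pigs farthest from the median, LW pig 15 of the A system and LW pig 4 of the C system, 40 probes reached 0.6, and r was 0.74 for HBEGF and 0.82 for CF366520.1_776. The count was 80 after loess, 30 without the slide term, 32 by Spearman's rho and 90 without B pig 15 and LW pig 18 of the A system, which stand apart in the series matrix.

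Probes that followed ANKRD1 in one breed were described in the other, whose pigs had no part in their choice except through the shared model. The 50 probes with the highest r in LW pigs (median 0.73) had a median r of 0.39 in B pigs, with 42 of 50 above 0, compared with a median of 0.03 and 55.0% above 0 over all probes. The 50 with the highest r in B pigs (median 0.75) had a median of 0.11 in LW pigs, with 34 of 50 above 0, compared with -0.01 and 49.0%. For the 50 lowest, the median in the other breed was -0.14 for those chosen in B pigs and 0.00 for those chosen in LW pigs. Of the lowest list of B pigs 34 of 50 were below 0 in LW pigs, compared with 6236 of 12221 over all probes. Of the lowest list of LW pigs 26 of 50 were below 0 in B pigs, near the share over all probes (5504 of 12221).

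Between breeds 11 of the 51 covarying probes were called (21.6%), a share near the 21.2% of all probes. Of the 41 positive probes 4 were called (9.76%), 3 higher and 1 lower in B pigs, where 11.6% of all probes were higher and 9.61% lower, and their median breed difference was -0.02. Of the 10 negative probes 7 were called (1 higher and 6 lower in B pigs), with a median of -0.16. The difference between the 2 sets was not tested. The total of 11 calls ranged from 0 to 41 under the alternatives, where the number of covarying probes itself ranged from 4 to 172. The 41 calls were among the 172 probes chosen at a lower threshold of r. The count of 0 came at a higher threshold, which left fewer probes. The range is thus not one of calls in a fixed set of probes. For the interaction 39 of the 41 positive probes had an estimate below 0, like ANKRD1, compared with 7608 of 12221 over all probes, and none was called. The same pigs give the group means of ANKRD1 and of probes that follow it, so that these estimates are not independent of each other.

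Among titin and I-band partners, 3 of 18 listed genes had a symbol here. YWHAQ, a 14-3-3 adaptor protein, had an r of 0.39 with ANKRD1 (-0.15 in B pigs of the C system), NEB, the nebulin ruler of the thin filament, 0.25, and OBSL1, an obscurin-like linker of the M-band, -0.12. YWHAQ (-0.35) and OBSL1 (-0.25) were called lower in B pigs and NEB was not (-0.22, adjusted P value 0.175). Over all probes 9.61% were called lower, and the symbols of these 3 come from the list selected for that direction. None of these partners thus followed ANKRD1 to an r of 0.6.

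Of the sarcomere filament list, 7 of 23 genes had a symbol here, with a median r of 0.13. MYL9, a regulatory myosin light chain of smooth muscle and non-muscle cells, had the highest (0.49), and MYH1, the fast 2X myosin heavy chain, had 0.09. The breed test called 5 of the 7, all lower in B pigs and with MYH1 at -0.66, compared with 9.61% of all probes, in genes named from a list selected for this direction. Calcium handling (CASQ2, ATP2A1 and 2 probes of JPH1; 3 of 10 genes) had r between -0.34 and 0.17. CASQ2, the calcium-binding protein of the sarcoplasmic reticulum, had an r of 0.15 and was called lower in B pigs (-0.43), as was 1 probe of JPH1 (-0.39). The r of CASQ2 was 0.48 and -0.49 in B pigs of the C and A systems. It was 0.48 and -0.10 in LW pigs of the C and A systems.

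Of the stress and early response list, 10 of 20 genes had a symbol here, with a median r of 0.26. They included both named genes past 0.6, HBEGF and DNAJA4. Other genes of the list may have probes on the array that carry no symbol here. MYC followed with 0.53 and ASNS, the asparagine synthetase that rises with amino acid shortage, had 0.47. In ASNS r was 0.70 over LW pigs but -0.08 over B pigs, with -0.23 and -0.33 in those of the C and A systems. BAG3, a co-chaperone of filamin turnover, and the kinase SGK1 were called lower in B pigs (-0.76 and -0.55) and had an r of only 0.18 and 0.09. The r of SGK1 was -0.39 and -0.67 in B pigs of the C and A systems. It was 0.28 and 0.47 in LW pigs of the C and A systems. BTG1 had an r of -0.17. The breed test called 6 of the 10, all lower in B pigs, where the share over all probes was 9.61% and the choice of the list had set the direction.

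Of the YAP and TGF-beta response list, 6 of 9 genes had a symbol here, on 7 probes, with r between -0.45 (SAV1) and 0.42 (PMEPA1, a feedback inhibitor of TGF-beta signalling). Of the myogenic regulation list, 4 of 9 genes had a symbol here, on 5 probes. Both probes of MEF2C, a muscle transcription factor, had an r of 0.48 and were called lower in B pigs (-0.50 and -0.68). In all 6 of 7 probes of the first list and 3 of 5 of the second were called, each lower in B pigs, compared with 9.61% of all probes, again in genes named from the list selected for this direction. In MEF2C r was 0.64 and 0.65 over LW pigs and 0.14 and 0.10 over B pigs, with negative values in B pigs of the A system (-0.22 and -0.16). For housing and for the interaction, no probe of any of these lists was called.

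Markers of other cells moved with ANKRD1 in part. Of the smooth muscle and pericyte markers 3 of 5 had a symbol here, and r was 0.49 for PDGFRB, 0.49 for MYL9 and 0.14 for ACTA2. PDGFRB had an r of -0.22 in B pigs of the C system, against 0.34 to 0.65 in the other groups. The mean of the 3 had an r of 0.40 (rho 0.35). Their summed Cy3 signal, led by ACTA2, ranged from 8308 to 14378 in B pigs of the C system and from 9112 to 13935 in B pigs of the A system. It ranged from 3944 to 15671 in LW pigs of the C system and from 12791 to 18813 in LW pigs of the A system, and the medians were 11168, 12321, 14925 and 14485 in this order. In ACTA2 and skeletal ACTA1, A minus C in LW pigs was 0.41 and 0.40. LW pig 8 of the C system was low in both, at -2.75 and -3.20. How far the sum stands for smooth muscle was not tested. The mean of 3 probes of the fibroblast markers COL1A2 and DCN had an r of 0.19. Of blood and immune cells, HBA2 had r of -0.07 and -0.15 for its 2 probes, and CORO1A, an actin-binding protein of leukocytes, had 0.45, from 0.69 over LW pigs and 0.04 over B pigs (-0.30 in those of the C system). The summed Cy3 signal of these 3 probes, led by HBA2, was lowest in B pigs of the A system, where ANKRD1 was lowest too, with 926 to 2342 and a median of 1476. The medians were 3741 in B pigs of the C system (845 to 7972), 3653 in LW pigs of the C system (1313 to 6878) and 2693 in LW pigs of the A system (1228 to 13199). For A minus C in B pigs the 2 probes of HBA2 had estimates of -0.66 and -0.65, and no marker was called for housing or for the interaction. Between breeds PDGFRB (-0.31), MYL9 (-0.34), 1 of 2 probes of COL1A2 (-0.50) and CORO1A (-0.29) were called lower in B pigs, as 9.61% of all probes were, with names from the list selected for this. Within groups the mean of the 3 blood and immune probes (HBA2 and CORO1A) had an r of -0.03 with ANKRD1. The mean of the skeletal fibre markers ACTA1, MYH1 and NEB had an r of 0.21. All these probes were well above background on all 40 arrays, but the 2 probes of HBA2 had values in use on only 37 and 35 of them. Markers of adipocytes, endothelium and cardiac muscle were not analysed here. The part of these cells in the covariation was not tested.

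The sequences of the ANKRD1 probe, of the 2 probes of CF366520.1 and of the 3 named genes with the highest r are shown because a shared stretch could let one transcript light up several spots. Among the 66 probes compared, that is the 51 covarying ones and the other 15 probes of the 20 genes named for their r, the longest stretch shared with the ANKRD1 probe was 13 bases of 60, in TMEM61, and 10 bases with its reverse complement. Capitals mark the longest stretch that each probe shares with the ANKRD1 probe, which is given in lower case throughout.
ANKRD1 BM445302.1_1507: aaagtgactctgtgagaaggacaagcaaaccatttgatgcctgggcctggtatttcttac
CF366520.1_776: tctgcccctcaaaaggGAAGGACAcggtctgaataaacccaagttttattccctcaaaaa
CF366520.1_605: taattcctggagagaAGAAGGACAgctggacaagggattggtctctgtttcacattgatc
HBEGF BP437233.1_806: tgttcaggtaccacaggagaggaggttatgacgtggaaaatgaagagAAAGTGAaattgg
DNAJA4 BM190198.1_3073: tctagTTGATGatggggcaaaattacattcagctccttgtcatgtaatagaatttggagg
TMEM61 AW315236.1_1003: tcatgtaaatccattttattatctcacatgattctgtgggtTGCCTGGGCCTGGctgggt
The G and C content of these probes was 45.0%, 43.3%, 45.0%, 43.3%, 38.3% and 45.0%, in this order. In CF366520.1_776 the shared stretch was 8 bases and in HBEGF 7.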

How the data were processed

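The authors scanned each array, quantified the spots with Agilent Feature Extraction 9.5.3.1 and deposited the intensity of each spot and of its local background in both dyes, with marks for outliers, saturation and signal well above background, before normalization. The same files hold Agilent's processed intensities. A series matrix of log2 ratios was deposited as well. Set against the ratios of the processed intensities, these had a median correlation of 0.994 and a median slope of 0.948, with the pig in the numerator, and array medians from -0.0148 to 0.0261. B alternative replicate 15 (0.684) and LW alternative replicate 18 (0.779) had the lowest correlations, for a reason not given in the sources used here. With the background-corrected ratios analysed here, the series matrix had a median correlation of 0.704, and the lowest was 0.275. For ANKRD1 the correlation over arrays was 0.994.

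Here background was corrected with normexp (offset 50, over all spots) in limma 3.58.1 under R 4.3.3. log2(Cy3/Cy5) was centred on the median of each array. Control spots (546) and 2396 outlier spots were left out and 83 saturated spots kept. Tests covered the 12222 probes whose Cy3 spot was well above background in 10 or more of the 20 arrays of either breed. The model held breed, housing, interaction and slide, with Benjamini-Hochberg adjustment over all tested probes and calls at 0.05. There were 7 slides, all with pigs of both breeds, and 3 scan days, and no slide was split over days. Covariation is the Pearson correlation of residuals from this model, and r within a group is that of the log2 ratios. Programs were tested on simulated data. Precision is limited by the number of arrays.

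ANKRD1 and all lists were chosen with earlier results of these data known. Named are the first 10 genes with a symbol by highest and by lowest r, at most 2 unnamed probes for each direction, and the genes of the lists that had a symbol. The model has no term for litter or slaughter session, which the labels used here do not give. Alternatives covered background, normalization, Cy3 intensity, the series matrix, filters, slide, array weights, the replicate number as a block, each array left out, and the choice and threshold of the correlation.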

Additional observations from a re-analysis of the deposited data

Results flagged for a closer look

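For ANKRD1 the housing difference ran in opposite directions in B and LW pigs, and the test of this difference gave -2.00 on the log2 scale (SE 0.72) with an unadjusted P value of 0.00873, but an adjusted P value of 0.968 over 12222 probes.

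In 29 of 260 combinations of a probe and a group of 10 pigs, 1 pig lay far from the others, where chance gives about 1 in 20. For ANKRD1 this was LW pig 4 of the C system, at 1.12, with the next at -0.72. B pig 3 of the C system was high in MT-ATP6 (0.18) and CF366520.1_605 (0.95). LW pig 6 of the C system was low in both probes of SAV1 (-1.24 and -0.94). LW pig 14 of the A system was low in EWSR1 (-0.81) and high in ASNS (1.41), and LW pig 15 of the A system was high in SKIL (0.65). These 5 pigs are among the 7 with high ANKRD1 residuals, as is B pig 16 of the A system, which was high in YWHAQ (-0.30).

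LW pig 8 of the C system lay apart in 6 probes, low in ACTA1 (-3.20), MYBPC3 (-2.10), ACTA2 (-2.75), COL1A2 (-1.56) and NCAM1 (-0.27) and high in BMP4 (0.54). LW pig 13 of the A system was low in YWHAQ (-0.77), TPM3 (-0.77), MEF2C (-1.41) and DCN (-1.03). B pig 10 of the C system was low in MYBPC3 (-1.16), TPM1 (-1.01), TGIF2 (-0.19) and DCN (-0.90). The remaining single values were MT-ATP6 at -1.02 in B pig 15, MYBPC3 at -0.87 in B pig 17 and NCAM1 at 0.45 in B pig 20 of the A system, MYO10 at 0.62 in LW pig 11 of the A system, and CRTAP at 0.32 in B pig 8 and OBSL1 at 0.68 in B pig 5 of the C system.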

How the results depend on the processing

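The ANKRD1 breed difference kept its sign under all 16 alternatives (-1.17 to -1.03) and with each array left out (-1.29 to -0.95). The interaction kept its sign and did not pass under 15 alternatives or with each array left out (-2.26 to -1.71). The mean housing difference, near 0 in the main setting, changed sign without passing: -0.022 without background correction, -0.0129 with background subtraction and a floor, -0.0131 without centring, -0.0615 without the slide term and in the two-step analysis, -0.0571 with slide as a random block, and -0.20 to 0.17 with each array left out. In the C system the breed difference was 0.016 with array weights and -0.33 to 0.17 with each array left out. The count of probes called between breeds lay between 2307 and 3783.

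The number of covarying probes (51) was 80 after loess, 30 without the slide term, with slide as a random block and from group means alone, 32 by Spearman, 172 at an absolute r of 0.5 and 12 at 0.7. Chosen after seeing the data, it was 90 without B pig 15 and LW pig 18 of the A system and 4 without the 7 pigs with high ANKRD1 residuals, where fewer and less spread pigs remain. With each array left out it was 37 to 66. The breed calls among them were 11 of 51, with 2593 calls over all probes, given below in brackets. They were 19 of 56 without background correction (3631), 18 of 67 with a floor (3668), 20 of 76 with processed signals (3783) and 22 of 80 after loess (3736). Without centring they were 4 of 34 (2456), by Cy3 intensity 18 of 76 (3166), in the series matrix 18 of 72 (3484) and with array weights 17 of 55 (3746). Without the slide term they were 3 of 30 (2516), with slide as a random block 3 of 30 (2711) and from group means alone 2 of 30. By threshold they were 41 of 172 at 0.5 and 0 of 12 at 0.7. Without the 2 arrays above 25 of 90 were called, and without the 7 pigs 1 of 4. With each array left out they ran from 3 of 37 (LW pig 6 of the C system) to 16 of 66 (LW pig 18 of the A system). The cause was not tested. Of the 20 genes and 4 unnamed probes with the highest or lowest r, none changed the sign of r, but several fell in size. The other genes of the lists were not run through all alternatives; without the 7 pigs r changed sign in SGK1 (0.09 to -0.10), HERPUD1 (-0.15 to 0.04) and NCAM1 (-0.14 to 0.14), among others. Without centring r was -0.24 for KLHDC1 (-0.65 in the main setting), -0.35 for NUBPL (-0.61) and -0.33 for PMS2 (-0.61), and the count of negative probes was 0 in place of 10. Without the 7 pigs it was 0.10 for MT-ATP6 (0.55), 0.21 for TMEM61 (0.59), -0.24 for NUBPL and -0.056 for SAV1 (-0.45).

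Replicate numbers are shared between breeds, but same-numbered pigs correlated between -0.359 and 0.343 (over 0.1 in 3 of 20 pairs), so the numbers are not taken as pairing. With the replicate number as a block, 2648 probes were called between breeds, 51 probes covaried with 11 breed calls, and the mean ANKRD1 housing difference was -0.00037.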
